A study of Mus musculus with 21 samples.

Results

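The 6 genes described here make or help to make leukotrienes and lipoxygenase products: Pla2g4a, Alox5, Alox5ap, Lta4h, Ltc4s and Alox15. They were taken by symbol from the array annotation, and a probe set counted only if it was annotated to that symbol alone. All 6 genes were found, with 8 probe sets in all, among 18194 genes and 45101 probe sets. Each of the 6 passed the filter on low signals, which kept 12169 genes. The study sorted mouse monocytes and macrophages into 7 groups and hybridised 3 arrays per group, 21 in total, whose replicates the labels call biological. All mice were female C57BL/6 aged 7 to 8 weeks, and inflammation was started by injecting 20000000 particles of zymosan, a yeast cell wall preparation, into the peritoneal cavity. Cells of 4 h were Ly-6B+ Ly-6G- monocytes, those of 18 h were Ly-6B+/low Ly-6G- and include early macrophages, and those of 72 h were F4/80+ CD11b+ macrophages. At 168 h the sort gave F4/80(med-high) Ly-6B+ macrophages and F4/80(high) Ly-6B- macrophages. Naive mice, given no zymosan, supplied the references: monocytes from bone marrow, sorted as Ly-6B+ Ly-6G-, and resident macrophages of the peritoneum, sorted as F4/80(high) CD11b(high). All groups are gates of wild-type mice and not one cell lineage followed over time.

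Leukotriene synthesis starts when cytosolic phospholipase A2 alpha (Pla2g4a) cuts arachidonic acid from membranes. 5-Lipoxygenase (Alox5), helped by the activating protein FLAP (Alox5ap), turns it into the unstable epoxide leukotriene A4. From there the path divides: leukotriene A4 hydrolase (Lta4h) makes leukotriene B4, which attracts neutrophils, and leukotriene C4 synthase (Ltc4s) adds glutathione to make the cysteinyl leukotrienes, which make vessels leak. 12/15-Lipoxygenase (Alox15) oxidises the same fatty acid at other positions, and mouse resident peritoneal macrophages are known for it.

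Upstream sequences are shown for 3 of the genes because their signals moved in different ways: Alox5 and Ltc4s were low in monocytes and high in macrophages, and Lta4h was highest in bone marrow monocytes. RefSeq promoter windows (GRCm38.p6) were given for 4 of the 6 genes. Each line below holds the 250 bases before the annotated start, 5′ to 3′ on the gene's own strand. The positions are chr6:116461179-116461428 on the minus strand for Alox5, chr11:50238533-50238782 on the minus strand for Ltc4s, and chr10:93453146-93453395 on the plus strand for Lta4h. Capitals mark a match to GGGCGG (the GC box bound by Sp1) or GGAAGT (the ETS core bound by PU.1 and its kin) on either strand.
Alox5: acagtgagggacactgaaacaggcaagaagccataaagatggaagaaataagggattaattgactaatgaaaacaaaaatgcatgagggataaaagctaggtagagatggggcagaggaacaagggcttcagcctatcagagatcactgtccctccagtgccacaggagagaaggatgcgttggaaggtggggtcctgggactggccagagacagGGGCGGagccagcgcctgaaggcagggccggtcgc
Ltc4s: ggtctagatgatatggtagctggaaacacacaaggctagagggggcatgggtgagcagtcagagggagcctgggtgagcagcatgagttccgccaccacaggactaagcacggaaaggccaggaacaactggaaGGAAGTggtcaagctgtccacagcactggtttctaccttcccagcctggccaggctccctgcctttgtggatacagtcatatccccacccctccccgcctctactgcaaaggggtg
Lta4h: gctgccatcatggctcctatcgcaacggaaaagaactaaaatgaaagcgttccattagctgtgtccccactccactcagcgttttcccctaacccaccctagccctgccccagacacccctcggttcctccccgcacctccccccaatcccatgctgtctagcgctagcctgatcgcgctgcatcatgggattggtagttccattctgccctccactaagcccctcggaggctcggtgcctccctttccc
The window of Alox5 held GGGCGG on the sense strand at bases -35 to -30 from the start, a motif found in 32.7% of the 32851 RefSeq windows of this length. The window of Ltc4s held GGAAGT on the sense strand at bases -116 to -111, a motif found in 19.7% of windows. The matches did not overlap. The Lta4h window held neither. Window 2 of Pla2g4a, not shown, held GGAAGT on the antisense strand at bases -242 to -237 and -14 to -9. The motif of GATA factors, AGATAA, found in 9.99% of windows, was in none of those shown. These matches are letters in a sequence and no measure of binding.

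Values are MAS5 signals, a linear brightness that Affymetrix software scales to the same mean on every array. Array medians ran from 67.3 to 93.0, and 3 arrays per group set the limit on precision. The 3′ to 5′ signal ratio of the Gapdh control, a measure of RNA quality, ran from 1.64 to 2.89. It was 2.70, 2.47 and 2.57 at 4 h and 1.74, 1.64 and 2.12 at 18 h, with no overlap. Whether RNA quality had a part in the results was not tested. Monocyte and resident macrophage markers followed the labels: the median of 9 resident macrophage markers was 0.195% to 0.258% of its resident level in bone marrow monocytes, and Ccr2, the monocyte chemokine receptor, averaged 12011 there against 182 in resident macrophages. Of 9 neutrophil and granule genes, 8 were high in all 3 bone marrow arrays, although the gate was Ly-6G-. The summed signal of the 9 was 111337, 72940 and 239437 there and 683 to 6075 on the 18 peritoneal arrays. Cxcr2, the exception, read 16.6, 28.1 and 96.1 in bone marrow, and its mean was higher at 4 h (86.5 against 46.9). Ngp, a neutrophil granule protein, read 26006, 16552 and 38578 in bone marrow and at most 446 elsewhere. Each difference from bone marrow given here thus goes with a difference in the sum of these markers. A few arrays stood apart, and bone marrow replicate 3 had the highest sum of these markers. At 4 h, replicate 2 had a resident marker median of 3.90% of the resident level against 1.58% and 1.60%. At 72 h, replicate 2 had a Cpa3 signal, a mast cell protease, of 3408 against 140.0 and 131, and a B cell marker sum of 7986 against 626 and 715. In sorted bulk cells, fewer cells of a type and less RNA per cell cannot be told apart.

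In limma's F test across the 7 groups, 5 of the 6 genes had an adjusted p below 0.05, where 69.8% of all genes tested passed. Alox5ap did not pass (adjusted p = 0.105), but it did when the replicate number was added to the fit as a block. Alox15 had the widest span of group means, 1006-fold between resident macrophages and bone marrow monocytes, followed by Ltc4s with 228-fold and Alox5 with 46.0-fold. Lta4h spanned 3.41-fold, Pla2g4a 2.35-fold and Alox5ap 1.21-fold. The spans of Alox15 and Ltc4s rest on bone marrow signals near the floor of the arrays, so their size depends on how low values are treated.

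**Figure D1:**
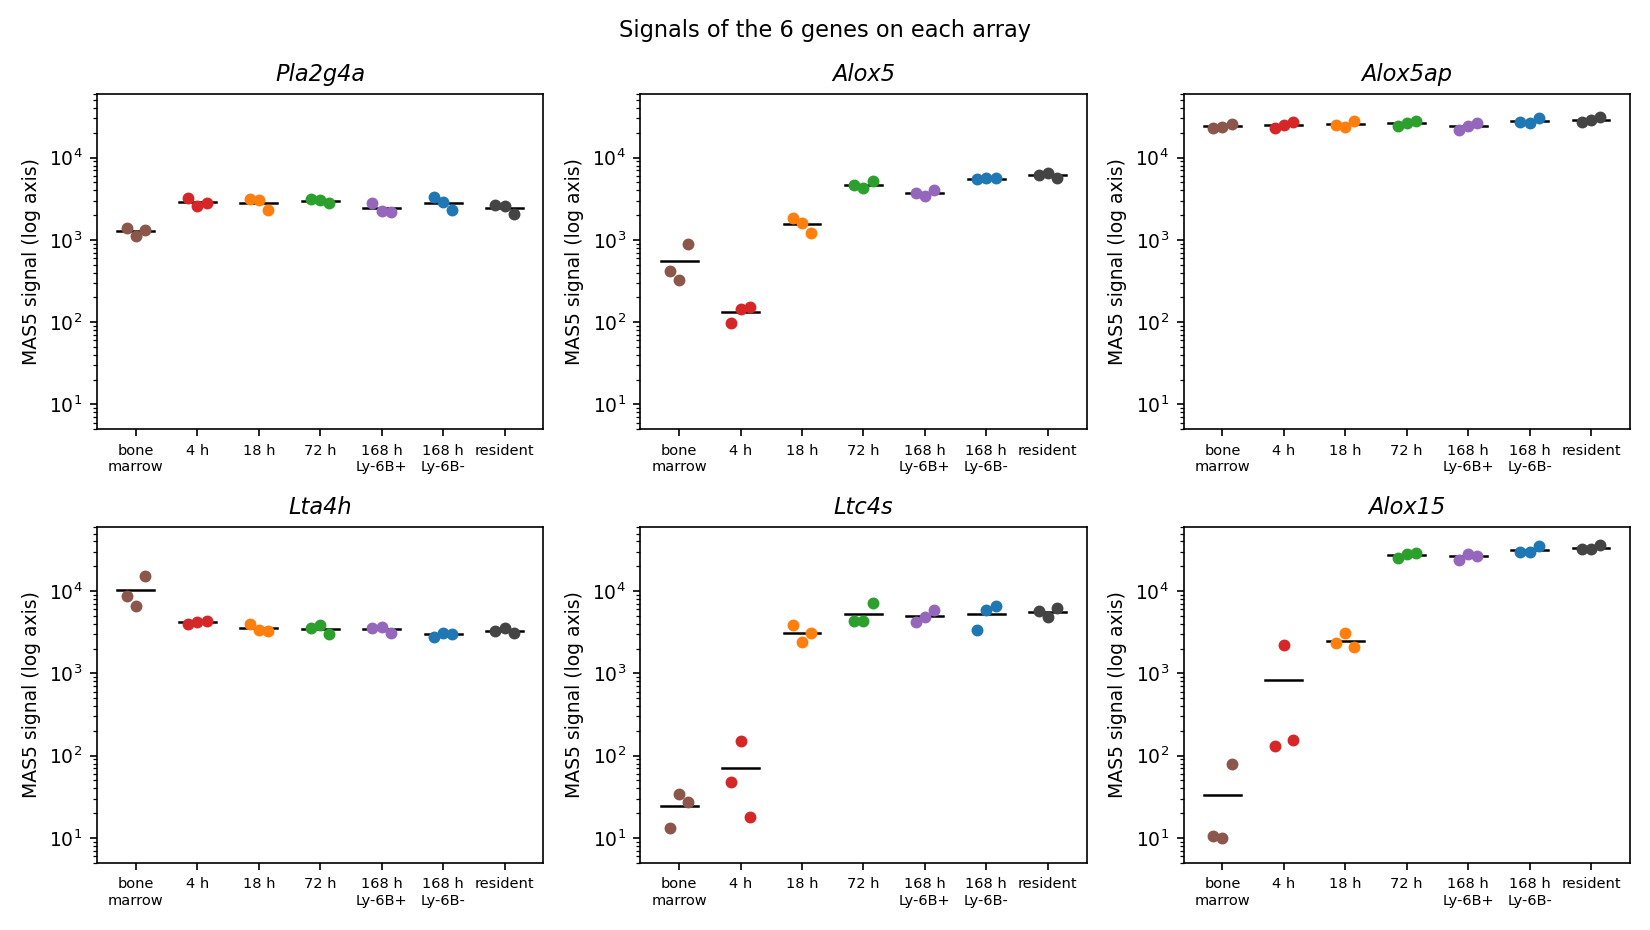
MAS5 signal (log axis) of each of the 6 genes on every array, by group. Points are the 3 arrays of a group and black bars their means. Alox15, Ltc4s and Alox5 are higher in the macrophage than in the monocyte groups, Alox5ap is flat between 21907 and 30988, and Lta4h is highest in bone marrow.

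Pla2g4a, which releases the substrate, was low in bone marrow monocytes and about level in all peritoneal groups. Bone marrow arrays read 1386, 1127 and 1309, and the 18 other arrays ran from 2089 to 3307, so bone marrow did not overlap with any of them. At 4 h the arrays read 3213, 2612 and 2794. The rise from bone marrow to 4 h was 1.16 on the log2 scale (SE 0.15, limma adjusted p = 2.29e-06), on log2(signal + 15) as for all fold changes here. A gene was called when its adjusted p was below 0.05 and its log2 fold change at least 1 in size. Resident macrophages read 2688, 2563 and 2089, a log2 difference of 0.93 from bone marrow (adjusted p = 3.72e-05), which fell short of that size. Without resident replicate 3 it was 1.04 and called.

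Alox5 went down before it went up. Bone marrow arrays read 424, 328 and 890, and 4 h arrays 98.8, 145 and 152, with no overlap. The signal fell by 1.83 on the log2 scale (SE 0.24, adjusted p = 2.27e-06). Bone marrow replicate 3, the array with the highest neutrophil markers, was also the highest for Alox5, and without it the signal fell by 1.42 (adjusted p = 2.19e-06) and was still called. At 18 h the arrays read 1839, 1596 and 1201, all above both earlier groups, a rise of 3.41 from 4 h (SE 0.24, adjusted p = 1.17e-09). At 72 h they read 4597, 4249 and 5216, again with no overlap, a further rise of 1.61 (SE 0.24, adjusted p = 2.78e-05). The gene that carries out the committed step was therefore lowest in the monocytes of 4 h and had passed its bone marrow level by 18 h (log2 difference 1.58, adjusted p = 2.3e-05). Resident macrophages read 6104, 6491 and 5610, 3.56 above bone marrow (SE 0.24, adjusted p = 1.29e-10).

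Alox5ap, whose product hands arachidonic acid to 5-lipoxygenase, was bright on every array and its signal changed little. Its arrays read 21907 to 30988, where the highest value of any probe set was 49770. Whether so bright a probe set still follows changes in RNA was not tested. Its group means ran from 23864 ± 1406 (SD, n = 3) in bone marrow to 28890 ± 1892 (SD, n = 3) in resident macrophages. The groups in between overlapped with each other. The difference between resident macrophages and bone marrow was 0.28 on the log2 scale (95% interval 0.07 to 0.48, adjusted p = 0.0232), and 0 of 21 pairs of groups were called. While Alox5 fell and rose, the differences of Alox5ap were 0.06 from bone marrow to 4 h (95% interval -0.14 to 0.26), 0.02 from 4 h to 18 h (-0.18 to 0.22) and 0.05 from 18 h to 72 h (-0.15 to 0.25).

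Lta4h, on the leukotriene B4 branch, ran the other way. Bone marrow arrays read 8702, 6527 and 15338, and the 18 other arrays lay between 2800 and 4377, below all of these. From bone marrow to 4 h it fell by 1.19 on the log2 scale (SE 0.19, adjusted p = 3.26e-05), and it was lower by a log2 fold change of -1.53 in resident macrophages (SE 0.19, adjusted p = 1.43e-06). The highest array was bone marrow replicate 3, and its neutrophil markers were the highest too: S100a9, one of the listed markers, read 39146 there against 8538 and 5796. Without that array the drop to 4 h was -0.85, short of the size for a call (adjusted p = 4.05e-05), and the resident difference was -1.19 and still called. Bone marrow stayed above every other array without it, but both remaining arrays also had the high neutrophil marker sums given above. Whether neutrophil RNA had a part in the result was not tested. At 4 h the mean of Lta4h was 4184 ± 217 (SD, n = 3), and the arrays of every later group and of resident macrophages lay below those of 4 h. Their means were 3529 ± 348 at 18 h and 3476 ± 411 at 72 h, then 3452 ± 324 for the Ly-6B+ population of 168 h, 2989 ± 167 for the Ly-6B- population and 3293 ± 198 for resident macrophages. The lowest, Ly-6B- cells, differed from 4 h by -0.48 (adjusted p = 0.0399), short of the size for a call. None of these groups differed from 4 h by a called amount. Arrays did not overlap with those of 4 h for 50.1% to 63.8% of all genes tested in these comparisons.

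The drop of Lta4h was seen with 1 of its 3 probe sets, the brightest. A dimmer set read 347, 248 and 1106 in bone marrow and 341, 240 and 395 in resident macrophages, which overlap. The dimmest ran from 20.8 to 168 over all arrays, and its highest mean was at 4 h. Taking the mean of the 3 sets gave -0.64 for resident against bone marrow (adjusted p = 0.0345) and -0.38 for 4 h against bone marrow (adjusted p = 0.22), neither of them called. Scaling to a common array median gave -0.91 for 4 h against bone marrow, also not called.

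Ltc4s, the cysteinyl leukotriene branch, was near the array floor in bone marrow and rose between 4 h and 18 h. Bone marrow arrays read 13.3, 33.8 and 27.0 and those of 4 h 47.9, 149 and 17.9, which overlap and lie mostly under the filter of 80.6. The log2 difference of 0.85 between them was not called (SE 0.39, adjusted p = 0.0826). It was called at 1.39 without 4 h replicate 3, and was 0.23 without replicate 2. At 18 h the arrays read 3888, 2393 and 3069, far above all earlier ones, a rise of 5.46 (SE 0.39, adjusted p = 1.42e-09). At 72 h they read 4319, 4357 and 7078, and the difference of 0.74 from 18 h was not called (95% interval -0.08 to 1.55, adjusted p = 0.171), although the arrays did not overlap. Resident macrophages read 5794, 4826 and 6260, 7.18 above bone marrow (SE 0.39, adjusted p = 4.06e-12). Among the 4 macrophage groups from 72 h onwards no neighbours in the order of means were called, with log2 differences of 0.01 to 0.13.

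Alox15 rose at every step up to 72 h. Bone marrow arrays read 10.5, 10.04 and 79.6, and the 4 h arrays 131, 2200 and 156, all higher. The rise was 3.28 on the log2 scale (SE 0.65, adjusted p = 0.000269), and 2.01 without 4 h replicate 2 (adjusted p = 0.000122). At 18 h the arrays read 2324, 3095 and 2075, so 4 h replicate 2 lies within this group. The rise from 4 h was 2.70 with it (SE 0.65, adjusted p = 0.00209) and 3.97 without it (adjusted p = 7.43e-08). With limma's treat, which tests against a change of 1, the call from 4 h to 18 h was lost (adjusted p = 0.154). At 72 h the arrays read 25010, 28186 and 28968, none near those of 18 h, a rise of 3.46 (SE 0.65, adjusted p = 0.000316). Resident macrophages read 32000, 32402 and 36305, 9.74 above bone marrow (SE 0.65, adjusted p = 1.02e-10). These resident signals are brighter than any of Alox5ap, and whether this probe set still follows changes in RNA there was not tested. That limit holds for each comparison of Alox15 among the macrophage groups from 72 h on and for its percents of the resident mean.

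Replicate 2 of 4 h stood out for some of the genes only. Beside its resident marker median of 3.90%, Alox15 stood at 6.55% of its resident mean there against 0.391% and 0.464% in replicates 1 and 3. Ltc4s stood at 2.65% against 0.851% and 0.319%. Alox5 did not set it apart, with 2.39% against 1.63% and 2.50%. Prg4, one of the markers, read 2792 there against 938 and 778. The part of resident macrophages in this array was not tested.

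**Figure D2:**
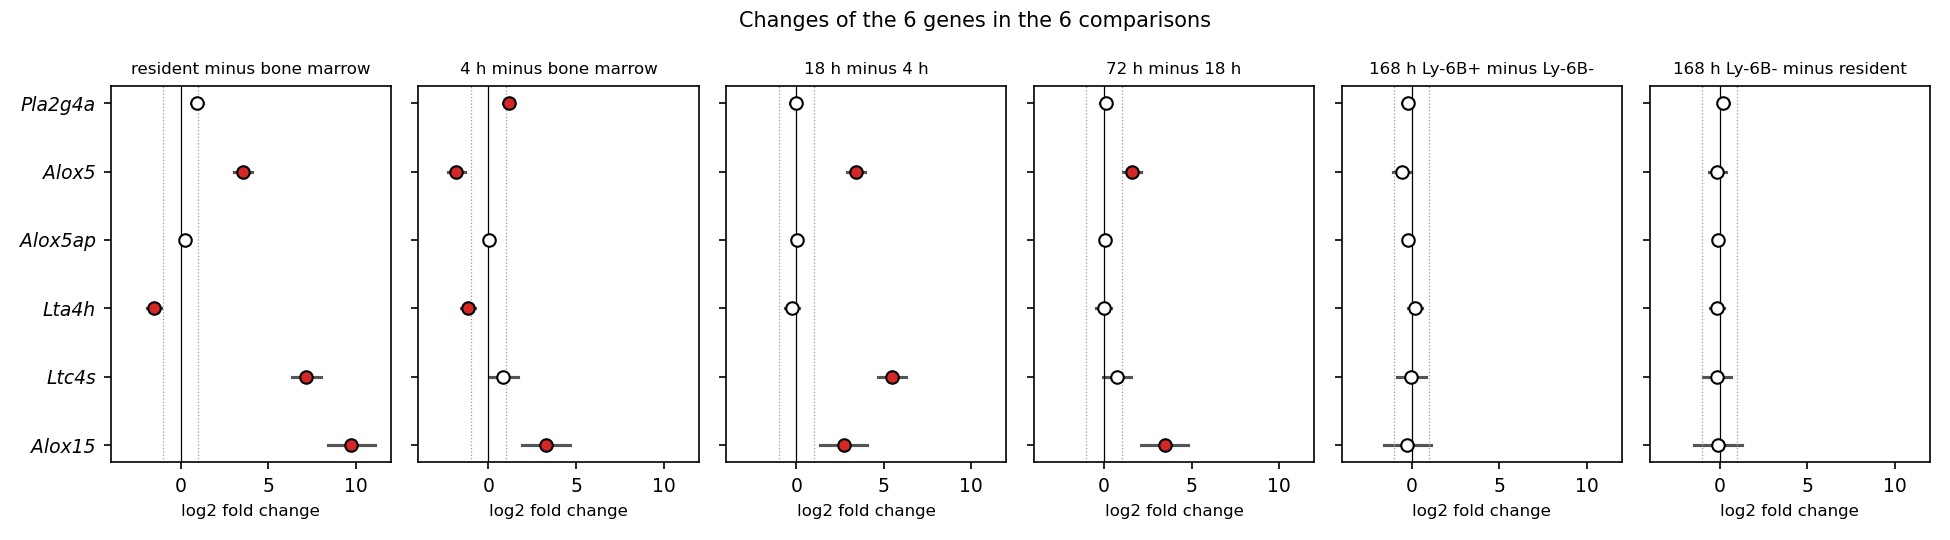
Log2 fold change (x axis) of each of the 6 genes in the 6 comparisons, one panel each, with 95% intervals from limma. Filled points were called, open points were not, and dotted lines mark a change of 1 in either direction. Calls stand in the first 4 panels, and none in both panels on the macrophages of 168 h.

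Counted by comparison, 3 of the 6 rose from bone marrow monocytes to the resident state and 1 fell, where 23.1% of all genes tested were called, 12.9% higher and 10.2% lower. From bone marrow to 4 h, 2 rose and 2 fell against 22% of all genes called, 7.5% higher and 14.5% lower, and without the arrays that stood apart 3 of 6 were called. From 4 h to 18 h, 3 rose and 0 fell against 15.5% of all genes called, 10.9% higher and 4.56% lower, and those 3 were Alox5, Ltc4s and Alox15. From 18 h to 72 h, 2 rose and 0 fell, Alox5 and Alox15, against 12.5% called, 9.03% higher and 3.46% lower. With treat, Pla2g4a and Lta4h lost their calls from bone marrow to 4 h, Lta4h in resident macrophages against bone marrow (adjusted p = 0.0525) and Alox5 from 18 h to 72 h (adjusted p = 0.18). Arrays of the groups compared did not overlap for 6, 4, 3 and 3 of the 6 genes in these comparisons, beside 56.1%, 54.7%, 50.1% and 41% of all genes tested. The median log2 change of the 6 genes was 1.36 from 4 h to 18 h beside 0.14 over all genes tested, and 0.42 from 18 h to 72 h beside 0.03. Over all 21 pairs of groups, where 0.0411% to 30.9% of genes were called, Alox5 and Alox15 were each called in 15, Ltc4s in 10, Lta4h in 6, Pla2g4a in 4 and Alox5ap in 0.

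The 3 rising genes neared their resident levels at different times. At 18 h Ltc4s stood at 42.5% to 69.1% of its resident mean, Alox5 at 19.8% to 30.3% and Alox15 at 6.18% to 9.22%. These ranges do not overlap. The 9 resident macrophage markers had a median of 5.43% to 7.89% of their resident level on these arrays. The group mean of Ltc4s, 55.4%, was above all 9 markers, that of Alox5, 25.5%, above 8, and that of Alox15, 7.44%, above 5. By 72 h Ltc4s stood at 76.8% to 126%, Alox5 at 70.0% to 86.0% and Alox15 at 74.5% to 86.3%, beside a marker median of 79.2% to 90.7%. In bone marrow Alox5 was already at 5.40% to 14.7% of its resident mean, above 8 of the 9 markers by its group mean.

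**Figure D3:**
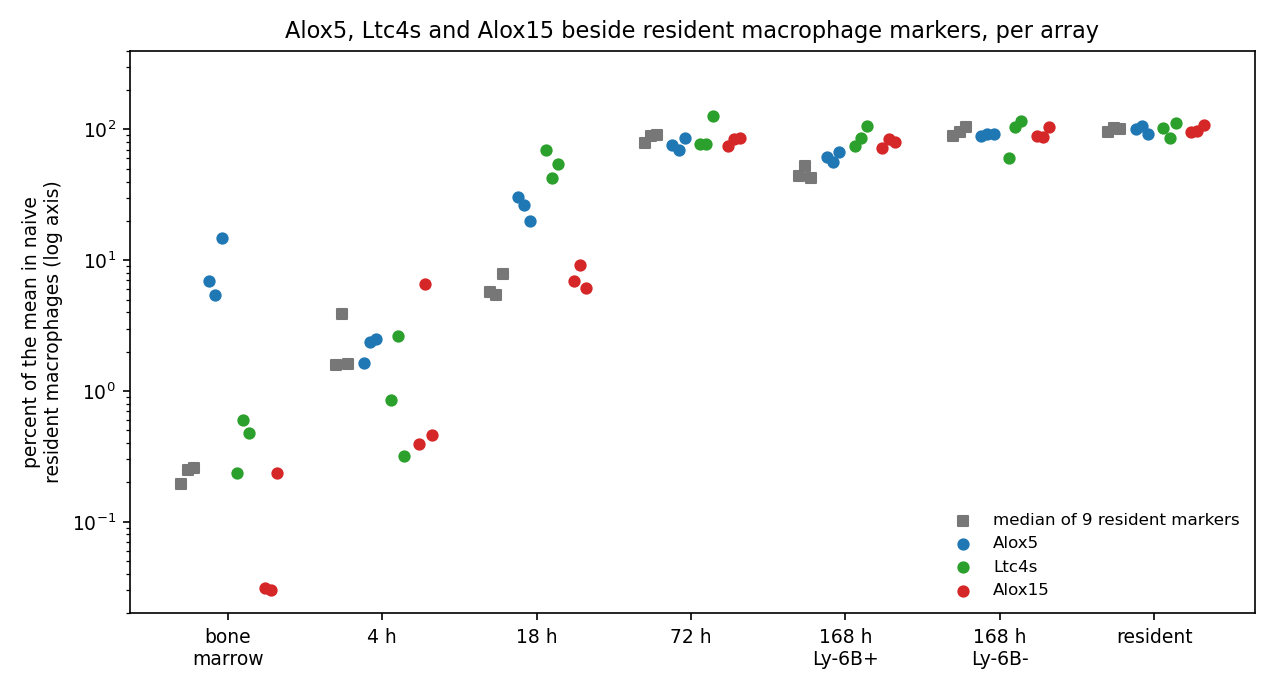
Signal of Alox5, Ltc4s and Alox15 on each array as a percent of that gene's mean in naive resident macrophages (log axis), by group, beside the median of 9 resident macrophage markers (grey squares). At 18 h Ltc4s lies between 42.5% and 69.1% and Alox15 between 6.18% and 9.22%, near the marker median of 5.43% to 7.89%.

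At 168 h the Ly-6B+ and Ly-6B- macrophages were compared, and 0 of the 6 genes were called in limma, against 3.94% of all genes tested, 1.54% higher and 2.41% lower in Ly-6B+ cells. In limma the unadjusted p was below 0.05 for 1 gene, Alox5. Alox5 read 3717, 3451 and 4086 in Ly-6B+ cells and 5456, 5605 and 5585 in Ly-6B- cells. These arrays did not overlap, as was so for 25.1% of genes tested. The log2 difference was -0.57 (95% interval -1.07 to -0.06, limma adjusted p = 0.175), and adjusted p was 0.0172 in a fit on these 6 arrays alone. The exact two-sided permutation test gave p = 0.1, the smallest that 3 arrays against 3 allow, and by same-numbered pairs it gave p = 0.25, the smallest that 3 pairs allow. Alox15 read 24056, 28327 and 26991 in Ly-6B+ cells and 29980, 29635 and 34914 in Ly-6B- cells, also without overlap, a log2 difference of -0.25 (95% interval -1.60 to 1.10, adjusted p = 0.888). Its wide interval comes with a spread estimate shared by all groups, the dim ones included. Pla2g4a, Alox5, Alox5ap and Alox15 were lower in Ly-6B+ cells in 3 of 3 pairs, Ltc4s in 2 and Lta4h in 0. For each of these genes but Ltc4s the exact permutation test by pairs gave p = 0.25, the smallest possible. The share of all genes lower in 3 of 3 pairs was not computed. Pla2g4a, Alox5ap and Lta4h overlapped, with log2 differences of -0.22 (adjusted p = 0.443), -0.20 (adjusted p = 0.25) and 0.20 (adjusted p = 0.618). Over the alternatives limma's adjusted p for Alox5ap went as low as 0.0319, with differences of -0.27 to -0.09 and no call. Ltc4s overlapped too, with means of 5010 ± 889 (SD, n = 3) and 5260 ± 1659 (SD, n = 3). The 9 resident markers were spread widely in Ly-6B+ cells: their median was 42.9% to 52.8% of the resident level, while Alox15 stood at 71.7% to 84.4%, Ltc4s at 74.5% to 106% and Alox5 at 56.9% to 67.3%. By group means, Vsig4 was lowest with 6.65% and Timd4, a receptor for dying cells, next with 8.71%, whereas Cd5l and Prg4 stood at 80.8% and 81.0%. The group mean of Ltc4s was above all 9 markers, that of Alox15 above 7 and that of Alox5 above 5.

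Ly-6B- macrophages of 168 h were set against naive resident macrophages, and again 0 of the 6 genes were called in limma, where 0.0411% of all genes, 5 in number, were called. The log2 differences lay between -0.14 for Ltc4s and 0.21 for Pla2g4a, and every adjusted p was 1. The unadjusted p was lowest for Pla2g4a, 0.194. The 95% intervals were -0.63 to 0.38 for Alox5, -0.96 to 0.67 for Ltc4s and -1.45 to 1.26 for Alox15, so a change of 1 or more lies within that of Alox15. Alox5 and Lta4h were lower in all Ly-6B- arrays than in all resident ones, which was so in one direction or the other for 8.61% of genes.

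Ordered by their means, 8 of 36 neighbouring groups differed by a called amount. The order was taken from these same means, and no share over all genes was computed for such neighbours. The count is a description, beside 0.0411% to 30.9% of genes called in single pairs of groups. Alox5 was called between 4 h, bone marrow, 18 h and 168 h Ly-6B+ cells, in rising order. Alox15 was called between bone marrow, 4 h, 18 h and 168 h Ly-6B+ cells, and Ltc4s between 4 h and 18 h. The remaining call was Lta4h between 4 h and bone marrow. From 168 h Ly-6B+ upwards, no neighbours in the order of Alox5 or Alox15 were called.

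For each gene, the genes most like it were taken by the highest Pearson correlation of log2 signals over the 21 arrays, which fall into 7 groups and are not independent points. Alox15 was closest to Cd5l (r = 0.988), Prg4 (r = 0.982) and Pltp (r = 0.981), of which Cd5l, a secreted macrophage protein, and Prg4, lubricin, are also in the resident marker list. Cd5l went from a mean of 52.3 in bone marrow through 519 at 4 h and 4110 by 18 h to 25099 by 72 h, near its resident mean of 25222. Ltc4s was closest to Fam20a (r = 0.994), Prmt2 (r = 0.993) and Mlxipl (r = 0.993). Fam20a went from 24.4 at 4 h to 1101 at 18 h and 1544 in resident macrophages, with the same early step as Ltc4s. Alox5 was closest to Tspan4 (r = 0.989), 4931406C07Rik (r = 0.985) and Pter (r = 0.985). Tspan4, a tetraspanin, shared the dip, with 97.4 in bone marrow, 8.03 at 4 h and 281 at 18 h. Its bone marrow arrays, 57.3 to 143, lie around the filter of 80.6, and those of 4 h, 3.63 to 14.5, under it. The size of its dip thus rests on the array floor.

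The other 3 genes had other neighbours. Lta4h was closest to Olfm4 (r = 0.971), Tmx4 (r = 0.967) and Abca13 (r = 0.96). Their rank correlations (Spearman) with it were lower, 0.73, 0.794 and 0.8. Olfm4, a neutrophil granule protein, read 163, 95.4 and 1109 in bone marrow, highest in replicate 3 as Lta4h was, and 2.11 to 27.8 elsewhere. Pla2g4a was closest to Bend4 (r = 0.953), Dab2 (r = 0.921) and Cttnbp2nl (r = 0.916), with rank correlations of 0.857, 0.669 and 0.725. Dab2, an endocytic adaptor, went from 46.4 in bone marrow to 8968 at 4 h. Alox5ap was closest to Ndufa1 (r = 0.874), Csf1r (r = 0.867) and Fkbp2 (r = 0.861), and 0 genes exceeded 0.9 with it, against 544 with Alox5, 240 with Alox15 and 236 with Ltc4s. Csf1r, the receptor for macrophage colony-stimulating factor, was likewise bright in every group, with means of 24498 to 31994.

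Around these enzymes, 68 further genes of the pathway were listed, 61 had a probe set of their own and 48 were tested. Resident cells against marrow monocytes showed 13 higher and 8 lower calls, 27.1% and 16.7% of those tested beside 12.9% and 10.2% of all genes. From bone marrow to 4 h 11 rose and 5 fell, 22.9% and 10.4% beside 7.5% and 14.5%. From 4 h to 18 h 6 rose and 6 fell, 12.5% each beside 10.9% and 4.56%, and from 18 h to 72 h 5 rose and 5 fell, 10.4% each beside 9.03% and 3.46%. Between the populations of 168 h 1 was higher and 3 lower in Ly-6B+ cells, 2.08% and 6.25% beside 1.54% and 2.41%, and 0 were called between Ly-6B- and resident macrophages. These shares are a description, since the list was chosen with results known.

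Among 10 listed receptors, 6 were tested. Ltb4r1, the high-affinity leukotriene B4 receptor of leukocytes, was bright up to 18 h and dim in macrophages from 72 h on. Bone marrow arrays read 3041, 2756 and 3847, those of 4 h 5491, 5239 and 6518, and those of 18 h 3934, 3619 and 4291. They read 628, 432 and 300.02 at 72 h, a log2 change of -3.14 from 18 h (SE 0.26, adjusted p = 1.62e-08). At 168 h, Ly-6B+ cells read 317, 175 and 260 and Ly-6B- cells 40.0, 11.5 and 12.5, with no overlap and a difference of 2.92 (SE 0.26, adjusted p = 2.12e-07). Resident macrophages read 4.70, 7.96 and 5.86, a log2 difference of -7.24 from bone marrow (adjusted p = 8.38e-15). These signals and those of Ly-6B- cells lie under the filter of 80.6, so the size of both differences rests on the array floor and the order of these dim groups is not resolved. Over the alternatives they ran from -8.82 to -5.62 and from 1.93 to 3.68. Cmklr1, a receptor for chemerin also described for resolvin E1, ran the other way, from 67.5 ± 12.1 (SD, n = 3) in marrow monocytes through 1088 ± 226 at 4 h and 2672 ± 462 by 18 h to 5532 ± 723 in the resident cells (log2 difference 6.07 from bone marrow, adjusted p = 4.95e-16). Gpr18, an orphan-type receptor also proposed for resolvin D2, was lower in resident macrophages than in bone marrow, by a log2 fold change of -3.18 (adjusted p = 2.2e-07).

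Some receptors outside the naming rule were added after their values were seen. Cysltr1, the main cysteinyl leukotriene receptor of macrophages, had means of 515 ± 67.7 (SD, n = 3) in the marrow, 1108 ± 228 in 4 h monocytes and 2181 ± 616 in 18 h cells. Its rise from bone marrow to 4 h was 1.07 (adjusted p = 0.00251), and the call was lost without bone marrow replicate 3 (0.96) and without 4 h replicate 2 (0.81). Fpr2, a formyl peptide receptor that lipoxin A4 is also reported to bind, peaked at 4 h with 12678 ± 759 (SD, n = 3) against 1986 ± 372 in bone marrow, a rise of 2.68 (adjusted p = 1.58e-10).

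**Figure D4:**
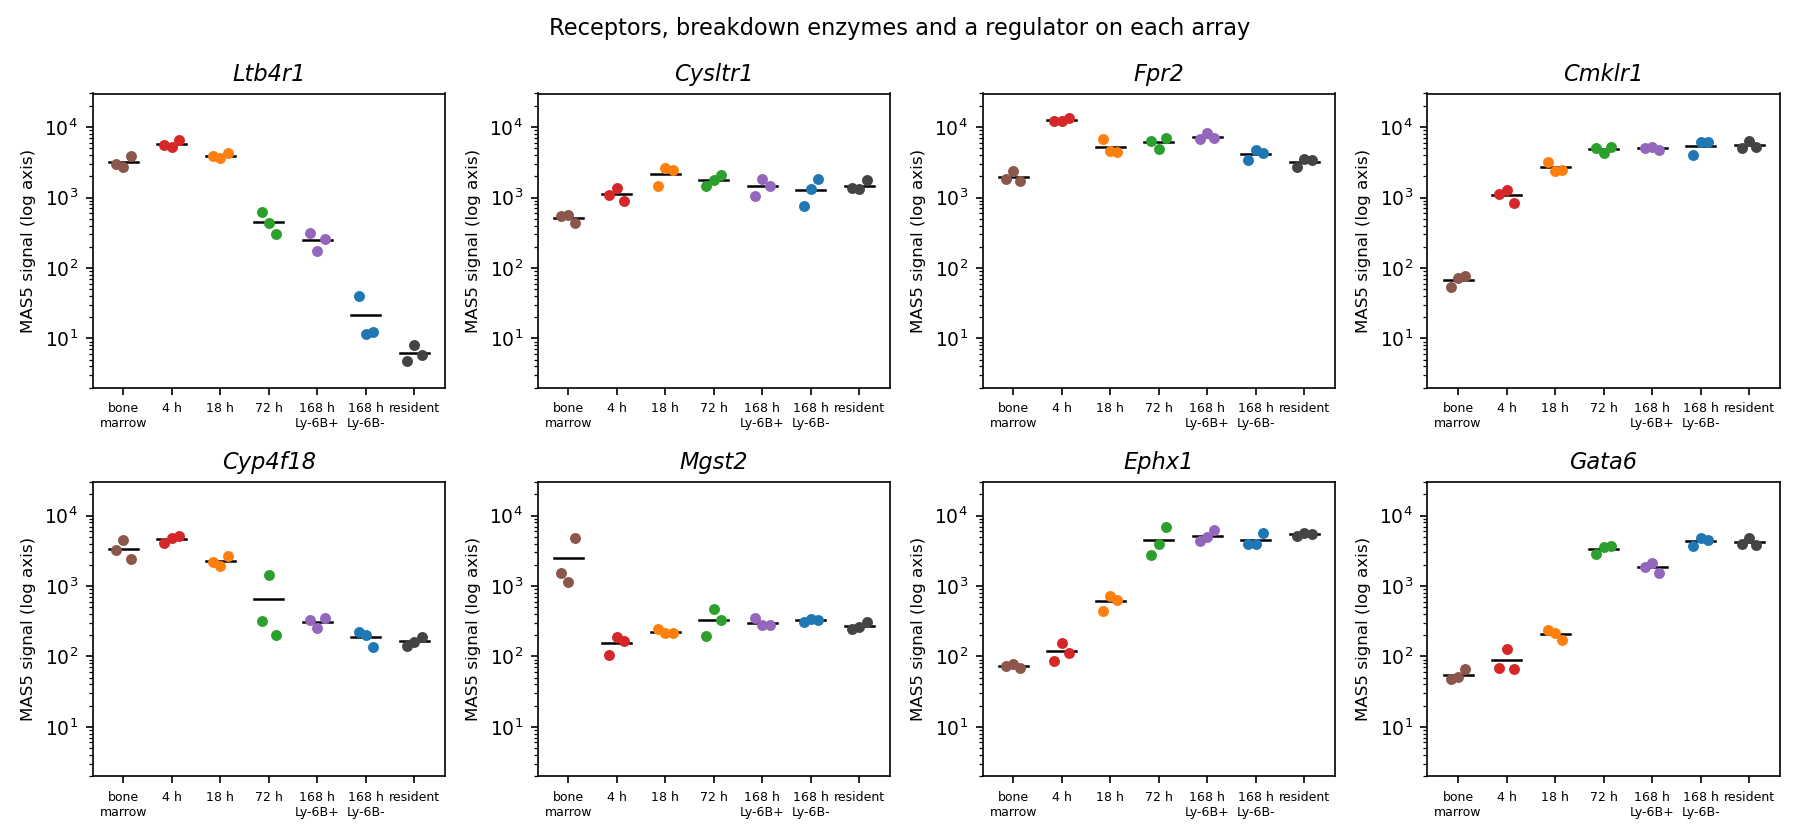
MAS5 signal (log axis) of 4 receptors, of Cyp4f18, Mgst2 and Ephx1, and of the transcription factor Gata6 on every array, by group. Points are arrays and bars group means. Ltb4r1 drops from 3948 at 18 h to 6.17 in resident macrophages, while Cmklr1 climbs from 67.5 in bone marrow to 5532.

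Enzymes that use or break down the products also split by group. Cyp4f18, which oxidises leukotriene B4, went from a mean of 3388 ± 1053 (SD, n = 3) in marrow monocytes to 2250 ± 363 by 18 h, 650 ± 672 by 72 h and 163 ± 22.3 in the resident cells. Its log2 difference between resident macrophages and bone marrow was -4.22 (adjusted p = 5.09e-08), and its fall of 2.25 from 18 h to 72 h was not called with the mean of its probe sets. At 72 h its highest array was replicate 2, with 1423 against 323 and 203. Ptgr1, which reduces oxidised leukotriene B4, fell by 1.41 from bone marrow to 4 h (adjusted p = 4.31e-08). Ptgr2, its relative, rose by 1.72 from 4 h to 18 h (adjusted p = 9.28e-09), a call lost with the mean of its probe sets. Ephx1, microsomal epoxide hydrolase, rose by 2.21 from 4 h to 18 h (adjusted p = 7.67e-07) and by 2.80 from 18 h to 72 h (adjusted p = 4.62e-08).

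On the glutathione side, Mgst2, a microsomal enzyme that can also make leukotriene C4, had bone marrow signals of 1512, 1129 and 4748, against 105, 186 and 167 in the monocytes of 4 h. It fell by 3.63 (SE 0.36, adjusted p = 5.36e-08), and its highest array was again bone marrow replicate 3. Mgst2 was highest in bone marrow, where Ltc4s was near the array floor, and its means from 4 h onwards lay between 153 and 332. Abcc4, an exporter of organic anions, fell by 1.43 from 4 h to 18 h (adjusted p = 1.33e-06). Of the genes for acyl chain handling, Lpcat2, which puts acyl chains back onto lysophospholipids, rose by 1.50 from 18 h to 72 h (adjusted p = 3.44e-07), and Lpcat1, its relative, fell by 1.50 from bone marrow to 4 h (adjusted p = 3.98e-08), a call lost with the mean of its probe sets. Pla2g7, which breaks down platelet-activating factor, rose by 2.93 from bone marrow to 4 h (adjusted p = 2.43e-09). At 168 h Pla2g7 and Lpcat2 were both lower in Ly-6B+ cells, with log2 fold changes of -1.81 (adjusted p = 2.36e-05) and -1.16 (adjusted p = 3.92e-05).

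The next genes were listed as regulators of lipoxygenase transcription, apart from Prkaca. That gene was listed with partners and kinases of 5-lipoxygenase and cytosolic phospholipase A2. Gata6, the factor of resident peritoneal macrophages, is also one of the 9 markers. Means of Gata6 were 55.2 in the marrow, 88.3 in 4 h monocytes, 208 in 18 h cells, 3407 in 72 h macrophages and 4188 in the resident cells. It rose by 3.94 from 18 h to 72 h (adjusted p = 1.4e-11), and its log2 fold change in Ly-6B+ against Ly-6B- cells was -1.24 (adjusted p = 0.000267). Il4ra, the interleukin-4 receptor, rose by 3.57 from bone marrow to 4 h (adjusted p = 2.97e-13) and fell by 2.21 to 18 h (adjusted p = 9.6e-10). Il13ra1, its partner, fell by 1.71 from 4 h to 18 h (adjusted p = 1.95e-06). Prkaca, a catalytic subunit of protein kinase A, rose by 1.43 over the same interval (adjusted p = 8.22e-07). Pparg, a lipid-sensing nuclear receptor, fell by 1.60 from 18 h to 72 h (adjusted p = 0.0122), and that call was lost without 18 h replicate 2 or 72 h replicate 3.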

How the data were processed

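TriZol RNA of the sorted cells, 100 ng per array, went through the amplification of a 2-cycle kit, per the labels' protocols. The authors deposited intensity values, linear MAS5 signals from Affymetrix Expression Console 1.2, per the submitters' processing notes, with no genome build given in the sources used here. The trimmed mean was 500.0 on every array, tested on the values, and detection calls were not used here. Fold changes are on log2(signal + 15). Genes took their probe set with the highest mean, and those above 80.6 in at least 3 arrays were tested with limma 3.58.1 in R 4.3.3 (lmFit, eBayes with trend, 14 residual degrees of freedom, Benjamini-Hochberg over 12169 genes, 2-sided). The script was tested on simulated data. Members, lists, motifs and rules were chosen with earlier results of these data known. Named are the 6 genes, per comparison the 3 called pathway genes that changed most each way, and the 3 genes most like each member. Some marker genes are named beside results. Probe sets with several symbols (932) or none listed (9211) were left out. P-values measure the spread between replicates that the labels call biological, with no animals named. Replicate numbers were taken to pair arrays only at 168 h, where residuals of same-numbered arrays correlated at 0.296, 0.276 and 0.178. In every group, however, Alox5ap was highest in replicate 3 and Pla2g4a in replicate 1. The main fit leaves this in the spread, and only the replicate block takes it out. Another 7 listed pathway genes were not analysed here. The alternatives were other pseudocounts, quantile normalization, a common median, other filters, other probe set rules, array weights, eBayes with no trend, the replicate block, treat, no minimum fold, leaving out each replicate in turn, and a fit on the compared arrays alone.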

Additional observations from a re-analysis of the deposited data

How the results depend on the processing

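Some alternatives cannot change a fold, only a call. They are other filters, eBayes with no trend, the replicate block, treat, no minimum fold and a fit on the compared arrays alone. Other probe set rules can move the fold of Lta4h only, since each other member has 1 probe set. With all of these included, 744 values of the 6 genes were recomputed. Of these, 704 kept their direction and side of the threshold, 10 lost a call, 7 gained one and 23 changed sign. Of these sign changes 2 were of called values: Lta4h with the probe set of highest interquartile range, 0.12 for resident against bone marrow (adjusted p = 0.827) and 0.68 for 4 h against bone marrow (adjusted p = 0.166), where another probe set stands for the gene. The other 21, in 8 results, were of small values not called. From 4 h to 18 h they were Alox5ap with a common median (-0.21) and Pla2g4a with array weights (0.013), and with each replicate left out these ran from -0.047 to 0.075 and from -0.11 to 0.11. From 18 h to 72 h they were Alox5ap with quantile normalization (-0.015) and a common median (-0.23) and Pla2g4a with a common median (-0.19), and leaving out replicates gave -0.00044 to 0.12 for Alox5ap, -0.047 to 0.17 for Pla2g4a and -0.096 to 0.073 for Lta4h. Between the 168 h populations they were Lta4h with the probe set of highest interquartile range (-0.21) and Ltc4s with quantile normalization (0.015), a common median (0.050) and replicates left out (-0.32 to 0.16). For Ly-6B- against resident cells Ltc4s gave 0.0061 with array weights and -0.33 to 0.14 with replicates left out. With limma's treat, 5 calls of single genes were lost, as the report gives: those from bone marrow to 4 h were 2 in place of 4, from 4 h to 18 h 2 in place of 3, from 18 h to 72 h 1 in place of 2 and in resident macrophages against bone marrow 3 in place of 4, and the neighbours called were 4 in place of 8. Ltc4s from bone marrow to 4 h was called with quantile normalization (1.08), a common median (1.13) and array weights (1.15). The replicate block changed no call of the 6 genes in the 6 comparisons. At 168 h it gave adjusted p = 0.151 for Alox5, and 6 genes passed the F test with it in place of 5, the added gene being Alox5ap. Folds of dim genes move with the pseudocount: Alox15 in resident macrophages against bone marrow was 10.59 with 1 added and 8.57 with 4 times the value used. A common median moved the median of all genes from -0.14 to 0.15 for 4 h against bone marrow, from 0.14 to -0.11 for 18 h against 4 h, from 0.05 to -0.22 for resident against bone marrow and from 0.03 to -0.27 for 72 h against 18 h. The calls over all genes then split into 1422 higher and 1216 lower in place of 913 and 1766 from bone marrow to 4 h, 844 and 903 in place of 1329 and 555 from 4 h to 18 h, 799 and 843 in place of 1099 and 421 from 18 h to 72 h, and 1177 and 1799 in place of 1566 and 1241 for resident against bone marrow. Leaving out together the 3 arrays that stood apart, in the bone marrow, 4 h and 72 h groups, was chosen after seeing the data. Signals near the array floor, as Ltc4s and Alox15 in bone marrow and Ltb4r1 in resident macrophages, limit how far low levels can be told apart.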
